A study of Homo sapiens with 6 samples.

Results

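The reticulon family was examined in MCF10A cells, a human line of mammary epithelium that is not transformed, after depletion of the transcriptional coactivators YAP and TAZ. The 4 genes RTN1, RTN2, RTN3 and RTN4 were taken by their Entrez identifiers from the 23459 genes of a 3′ mRNA-Seq count table. RTN1 was picked because it was much higher after the depletion, so its difference is given as a description without a test. RTN2, RTN3 and RTN4 were taken as its paralogs by name, whatever their values.

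Reticulons are membrane proteins of the endoplasmic reticulum (ER) whose conserved C-terminal domain forms hydrophobic hairpins that wedge into the membrane and bend it into tubules. Their N-terminal parts differ in length and sequence between family members and isoforms. RTN1 is known mainly from neurons and neuroendocrine cells, RTN2 from nerve and muscle, and RTN3 and RTN4 (also called Nogo) from most tissues, epithelia included.

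The study behind these libraries concerned JUN, a subunit of AP-1, and its effect on the target genes of YAP and TAZ. All 6 libraries came from MCF10A cells grown in medium with horse serum, insulin, hydrocortisone, cholera toxin and EGF and transfected with 20 nM siRNA, in 3 libraries a non-targeting control (siCtrl) and in the other 3 siRNA against YAP and TAZ (siYAP/TAZ). Nothing in the labels says that they came from separate cultures. The study's methods give 3 biological replicates per condition for its RNA-Seq samples and do not name these siRNA libraries. The p-values measure the spread between these libraries, which may be technical. The description marks each library as WT. The title and the genotype entry of siCtrl replicate 2 and of siYAP/TAZ replicate 2 name the opposite group to their description, which is also the column name of the count table and was followed here.

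Library totals ranged from 3175149 to 4317286 counts, and where no read was counted a level of up to 3 counts remains possible, or 0.680 to 0.992 CPM (counts relative to library size after TMM scaling), a limit that covers counting error only. YAP1 was at 189, 204 and 210 CPM in siCtrl against 116.5, 118 and 112 CPM in siYAP/TAZ. The siYAP/TAZ mean of YAP1 was 57.5% of the control mean, and that of WWTR1, which encodes TAZ, was 61.8%. The depletion seen in the RNA was therefore partial, and both genes separated the groups as the descriptions name them. YAP1 (adjusted p = 0.0138) and WWTR1 (adjusted p = 0.0311) fell in edgeR's quasi-likelihood test, adjusted by Benjamini and Hochberg's method. WWTR1 lost its call when any one library other than siCtrl replicate 2 was left out (edgeR adjusted p 0.0602 to 0.176), and YAP1 lost it when siCtrl replicate 3 or either of siYAP/TAZ replicates 2 and 3 was dropped (edgeR adjusted p 0.0606 to 0.112). Both also lost it with the groups of the titles. The test called 245 of 12510 genes, 93 higher and 152 lower, or 1.96% of those tested (0.743% higher and 1.22% lower), and 1263 with the replicate number as a block. Without siCtrl replicate 2 it called 1579 genes, and without both libraries with conflicting labels 1183 (9.29%). Leaving out one of the others lowered the count, to 16 without siCtrl replicate 3, 18 without siYAP/TAZ replicate 3, 71 when siYAP/TAZ replicate 2 was dropped, 92 when siCtrl replicate 1 was and 172 when siYAP/TAZ replicate 1 was.

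The libraries read the 3′ end of each polyadenylated transcript once, so the place that matters for these counts is the end of the last exon. All 4 genes carried the canonical polyadenylation signal AATAAA close to the end of the transcript examined. The windows around it are shown because the reads come from just upstream of them, written 5′ to 3′ on the strand of the gene with the signal in capitals, on GRCh37 (the coordinates of hg19, annotation from GENCODE).
RTN1, chr14:60062703-60062732, minus strand: actgaatgcataAATAAAtgttactaaatg
RTN2, chr19:45988555-45988584, minus strand: gatttacactgtAATAAAgactcctgtgga
RTN3, chr11:63527326-63527354, plus strand: tgatgtggtattAATAAAaaaaaaaaaaa
RTN4, chr2:55199329-55199358, minus strand: aagcaaagtatcAATAAAgcttatagactt

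The signal lay 14 bases before the transcript end in RTN1, 15 in RTN2, 11 in RTN3 and 16 in RTN4. The 3 annotated coding transcripts of RTN1 ended within 100 bases of the end of the transcript examined, and so did the 4 of RTN2. The shared end was that of 5 of 10 coding transcripts of RTN3 and of 8 of 11 of RTN4, although RTN4 had 10 distinct 5′ ends. Counts were given per gene, whether or not its isoforms share an end. Isoforms such as the long and short forms of RTN4 therefore cannot be told apart here.

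RTN1 (Entrez 6252; GRCh37 chromosome 14, 60062694 to 60337494, minus strand), the family member of neurons and neuroendocrine cells, had 42, 29 and 45 counts in siCtrl replicates 1, 2 and 3 and 546, 149 and 643 counts in siYAP/TAZ replicates 1, 2 and 3. At TMM-normalised scale these were 12.1, 8.95 and 11.3 CPM against 124, 49.3 and 175 CPM. The groups did not overlap, and the lowest siYAP/TAZ library was 4.08 times the highest siCtrl library. The means were 10.8 ± 1.62 CPM (SD, n = 3) and 116 ± 63.2 CPM (SD, n = 3), a ratio of 10.8. The fitted log2 fold change was 3.42 with a standard error of 0.42, the 6th highest of 12510 genes. Of those genes 0.743% were called higher and 11% were higher without overlap between groups, and nothing is read from these shares for RTN1, which was chosen from the same contrast.

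Of the 3 members that passed the low-count filter, RTN1 varied most among the siYAP/TAZ libraries. Its highest siYAP/TAZ value was 3.55 times the lowest, while the siCtrl values spanned 1.35-fold. The coefficient of variation was 54.5% against 15.1%. The low library was siYAP/TAZ replicate 2, whose title reads control. At 49.3 CPM it lay nearer in level to the other siYAP/TAZ libraries than to siCtrl on the log scale used in the plot of levels by library, and siCtrl replicate 2, whose title reads siYAP/TAZ, had the lowest RTN1 level of all. With both of these libraries left out the fitted log2 fold change was 3.68 (SE 0.23), and with siYAP/TAZ replicate 3, the highest library, left out it was 3.01 (SE 0.37). With the groups of the titles it was 2.11 (SE 0.91). In bulk RNA, a few cells with much RTN1 and many cells with a little cannot be told apart.

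**Figure D1:**
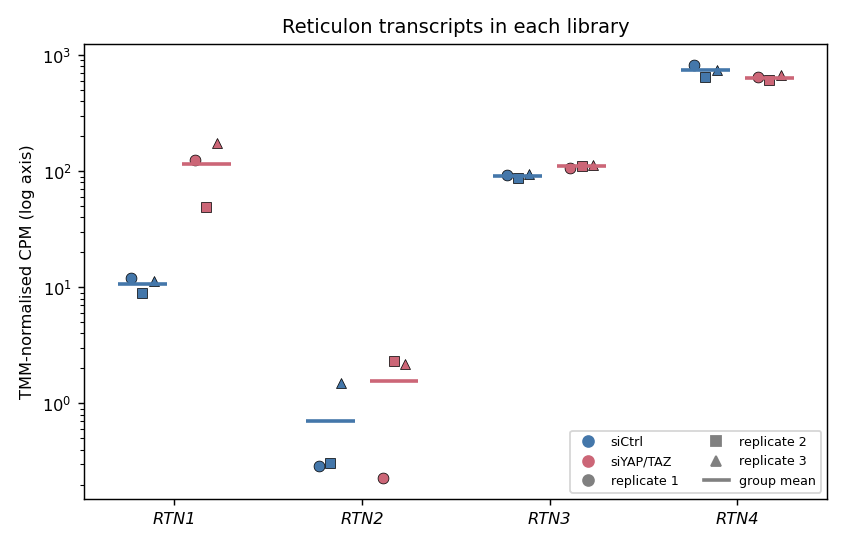
TMM-normalised CPM on a log axis for RTN1, RTN2, RTN3 and RTN4 in each of the 6 libraries, siCtrl in blue and siYAP/TAZ in red, with marker shape giving the replicate number and horizontal bars the group means. RTN1 separates the groups, with siYAP/TAZ replicate 2 at 49.3 CPM below the other 2 siYAP/TAZ libraries, whereas RTN4 overlaps and RTN2 lies near the counting floor.

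RTN2 (Entrez 6253; GRCh37 chromosome 19, 45988552 to 46000313, minus strand), which binds the ER-shaping protein spastin and is mutated in a form of hereditary spastic paraplegia, was close to absent. It had 1, 1 and 6 counts in the siCtrl libraries and 1, 7 and 8 counts in the siYAP/TAZ libraries. In 3 of the 6 libraries it lay below the floor of 3 counts, the groups overlapped, and the gene did not pass the filter on low counts. Summed over libraries there were 8 counts against 16, a ratio of 1.93 after scaling, with an exact 95% interval of 0.778 to 5.20 that covers counting error only. No difference in RTN2 was detected, and at this depth the interval is wide. Its body also overlaps 8279 bases of PPM1N on the opposite strand, which had 1 to 10 counts per library. The annotated 3′ ends of the 2 genes, at 45988552 for RTN2 and 46005771 for PPM1N, lay outside this overlap. Whether strand was used in counting is not given in the sources used here, so reads from inside the overlap may not be separable.

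RTN3 (Entrez 10313; GRCh37 chromosome 11, 63448918 to 63527363, plus strand), a receptor for the autophagic removal of ER tubules that also binds the protease BACE1, was narrowly spread within each group. It was at 93.3, 87.6 and 94.2 CPM in siCtrl against 107, 112 and 114 CPM in siYAP/TAZ. Every siYAP/TAZ library lay above every siCtrl library, at means of 91.7 ± 3.58 and 111 ± 3.81 CPM (SD, n = 3). The log2 fold change was 0.27 with a standard error of 0.12 and a 95% confidence interval of 0.0043 to 0.54. In edgeR's quasi-likelihood test the unadjusted p was 0.0471 and the p adjusted over 12510 genes was 0.276, so RTN3 was not called. The difference was small beside that of RTN1 and did not pass the threshold under any of the 15 alternative settings.

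RTN4 (Entrez 57142; GRCh37 chromosome 2, 55199323 to 55339757, minus strand), which encodes the myelin inhibitor Nogo-A and shorter forms made in most cells, was the most abundant member by far and ranked 122nd of the genes tested by mean CPM. It was at 827, 646 and 739 CPM in siCtrl against 642, 608 and 674 CPM in siYAP/TAZ. The groups overlapped, since siCtrl replicate 2 lay below siYAP/TAZ replicate 3. The means were 737 ± 90.8 and 641 ± 33.1 CPM (SD, n = 3). The log2 fold change was -0.20 with a standard error of 0.15 and a 95% confidence interval of -0.53 to 0.12, at an adjusted p of 0.508 in edgeR's quasi-likelihood test. The interval spans 0, and a p above the threshold does not show that RTN4 was unchanged.

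Of the paralogs taken by name, 0 of the 2 that could be tested were called by edgeR, where 1.96% of all genes tested were. RTN3 was the one with an unadjusted p under 0.05 in edgeR's test, and 2211 of the 12510 genes tested had such a p. DESeq2 called neither paralog. Of the tested paralogs, RTN3 had groups that did not overlap and RTN4 had groups that did. Over all genes tested, 22.1% had no overlap in either direction. The groups of RTN1 did not overlap either, but RTN1 was chosen from this contrast and is not counted here. RTN1 therefore differed from its paralogs in the size of its change on the log2 scale, 3.42 against 0.27 for RTN3 and -0.20 for RTN4, a difference that the choice of RTN1 used and that was not tested.

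**Figure D2:**
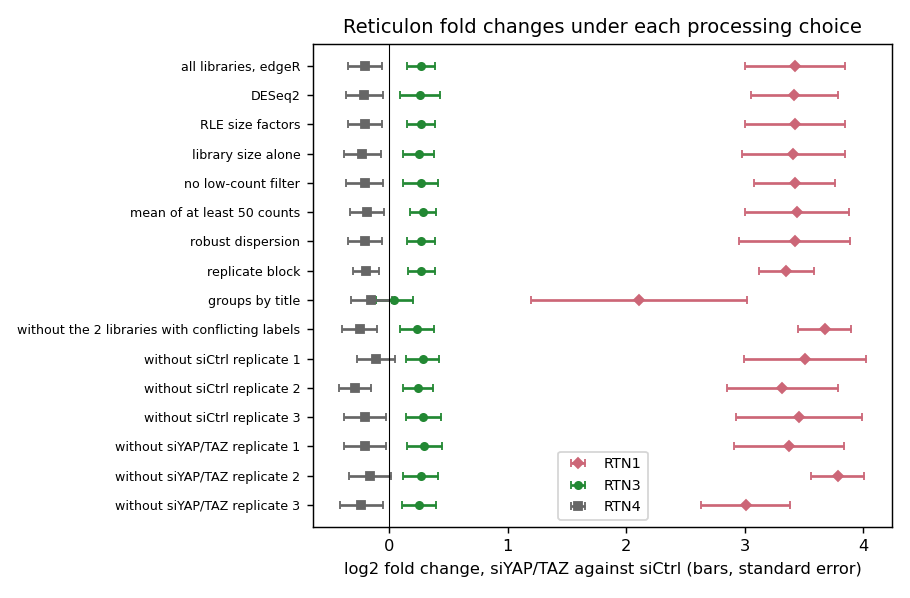
Fitted log2 fold change of siYAP/TAZ against siCtrl for RTN1, RTN3 and RTN4 (horizontal axis) under each processing choice (rows), with bars giving the standard error. RTN1 stays between 3.01 and 3.79 except with the groups of the titles, where it is 2.11, while RTN3 and RTN4 stay within 0.30 of 0.

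Because each transcript is read once at its end, the counts of the 4 members can be set beside each other as shares of the family without scaling by length. The family as a whole had 933, 742 and 846 CPM in siCtrl against 872, 771 and 965 CPM in siYAP/TAZ. These sums overlapped, with means of 840 ± 95.3 and 869 ± 96.9 CPM (SD, n = 3). What differed was the composition. RTN1 made up 1.29%, 1.21% and 1.34% of the reticulon counts in the siCtrl libraries and 14.2%, 6.39% and 18.1% in the siYAP/TAZ libraries. The exact 95% binomial intervals of single libraries, such as 5.43% to 7.46% for siYAP/TAZ replicate 2, cover counting error only and are narrower than the spread between the siYAP/TAZ libraries. The mean share was 1.28 ± 0.0668% (SD, n = 3) in siCtrl and 12.9 ± 5.97% (SD, n = 3) in siYAP/TAZ, 11.6 percentage points apart, and this share rests on RTN1 and is likewise a description.

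The share of RTN4 was 87.7 ± 0.90% in siCtrl and 74.1 ± 4.51% in siYAP/TAZ, and that of RTN3 was 10.98 ± 0.91% and 12.8 ± 1.45% (SD, n = 3). A share falls when another member is higher, so these values are not separate evidence of a change in RTN4. In the siCtrl libraries the order of levels was RTN4, RTN3, RTN1 and RTN2. In siYAP/TAZ replicates 1 and 3 RTN1 stood above RTN3, with 1.16 and 1.53 RTN1 counts per RTN3 count, and in siYAP/TAZ replicate 2 it stood below, with 0.441. All 3 siCtrl libraries had 0.102 to 0.129 RTN1 counts per RTN3 count. RTN4 had 65.4 to 72.1 counts per RTN1 count in siCtrl and 3.85 to 12.3 in siYAP/TAZ, so RTN1 remained below RTN4 in each library.

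**Figure D3:**
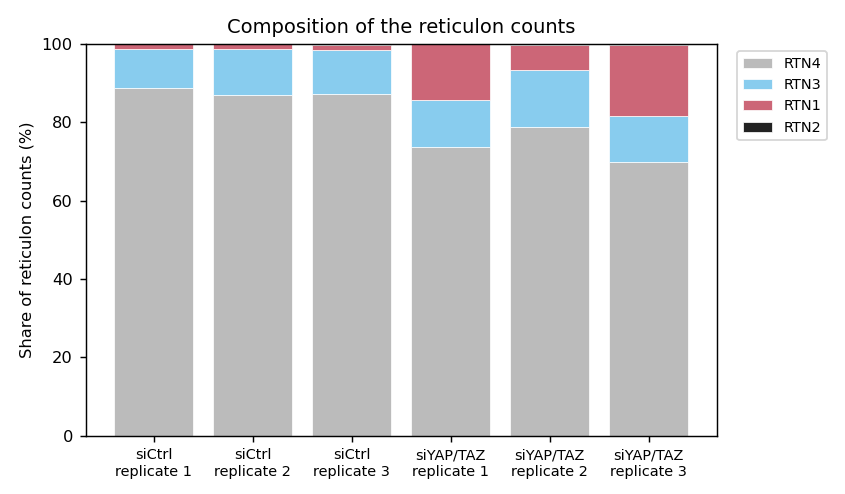
Share of the reticulon counts (percent, vertical axis from 0 to 100) taken by RTN4, RTN3, RTN1 and RTN2 in each library. RTN1 takes 1.21% to 1.34% in the siCtrl libraries and 6.39% to 18.1% in the siYAP/TAZ libraries, and RTN2 is too rare to be seen.

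Genes whose proteins act with reticulons or in the same pathways were followed in 5 lists that together held 62 genes. Of these, 50 passed the low-count filter. In edgeR's quasi-likelihood test 0 of the 50 were called, while 8 had higher and 3 had lower estimates with p under 0.05 before adjustment. In that fit p was under 0.05 before adjustment for 2211 of all 12510 genes tested, the background for such counts below. DESeq2 called 1, APH1B, against 4.54% of all its genes, and edgeR without the low-count filter 1, against 2.9%. With the replicate block 6 were called, against 10.1% of all genes in that fit, and without siCtrl replicate 2 there were 4, against 12.3%. Their median log2 fold change was 0.067 beside -0.00093 over all genes tested.

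The first list held proteins that shape ER tubules and sheets, such as atlastins, REEPs and sheet proteins. Of 21 genes 18 were tested, with a median log2 fold change of -0.0097 and a range of -0.59 to 0.78. KTN1, the kinectin of ER sheets and the most abundant of them, had 1587, 1756 and 1971 counts in the siCtrl libraries and 1930, 1646 and 1751 in the siYAP/TAZ libraries, at a log2 fold change of -0.035 (adjusted p = 0.925 in edgeR's test). With the replicate block ARL6IP1, a hairpin protein of ER tubules, fell by 0.60 on the log2 scale (adjusted p = 0.0117 in edgeR's test). RRBP1, the ribosome-binding sheet protein, fell by 0.41 (adjusted p = 0.0469) and TMEM33, which binds reticulons, rose by 0.47 (adjusted p = 0.0235) in the same edgeR fit. Without the block their adjusted p-values were 0.276, 0.151 and 0.105.

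The second list held other receptors of ER-phagy, the pathway in which RTN3 acts, and the ATG8 proteins that such receptors bind. All 10 were tested. The median log2 fold change was 0.26, and 9 of the 10 estimates lay above 0, where 49.9% of all genes tested did. None was called by edgeR or DESeq2 (p under 0.05 before adjustment for 3 higher and 1 lower), at adjusted p-values of 0.160 to 0.916. SEC62, the most abundant, was at 0.10 (adjusted p = 0.751) and RETREG1, a reticulon-like receptor of ER sheets, at 0.25 (adjusted p = 0.713) in edgeR's test. GABARAPL1 had 28, 79 and 41 counts in the siCtrl libraries and 110, 60 and 105 in the siYAP/TAZ libraries, so the replicate 2 libraries were the ones that overlapped. Its log2 fold change was 0.80 (edgeR adjusted p = 0.304) in all libraries and 1.41 (edgeR adjusted p = 0.00651) without siCtrl replicate 2. GABARAP passed the threshold with the replicate block at 0.55 (edgeR adjusted p = 0.0498). Without both libraries with conflicting labels CCPG1, at 0.61 (edgeR adjusted p = 0.0381), and RETREG2 of the first list, at 1.01 (edgeR adjusted p = 0.0350), did.

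The third list was the Nogo receptor pathway, through which RTN4 signals to RHOA and its kinases in neurons. Of 15 genes 7 were tested, and their log2 fold changes ran from -0.48 to -0.054 at adjusted p-values of 0.448 to 0.886, with 0 called by edgeR or DESeq2 and 0 at an unadjusted p under 0.05. RTN4R, the Nogo receptor, had 48, 35 and 83 counts in the siCtrl libraries and 37, 35 and 48 in the siYAP/TAZ libraries, and these overlapped (log2 fold change -0.48, adjusted p = 0.448 in edgeR's test). The related receptors, co-receptors and other ligands RTN4RL2, NGFR, TNFRSF19, LILRB2, OMG and MAG were at or under 3 counts in every library, LILRB2 at 0. NUS1, the Nogo-B receptor and a subunit of the dolichol-making prenyltransferase, was at 49.7 and 47.4 CPM (adjusted p = 0.886 in edgeR's test), and RHOA at 270 and 260 CPM (adjusted p = 0.857). The related receptor RTN4RL1 had 15 to 47 counts per library, the co-receptor LINGO1 2 to 11 and the receptor S1PR2 2 to 11, and the last 2 did not pass the low-count filter.

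The fourth list held BACE1, BACE2, the amyloid precursor protein and the other secretases, which reticulons can bind, and the fifth the serine palmitoyltransferase complex with its regulators. All 10 secretase genes were tested, with a median log2 fold change of 0.13. BACE1 had 68, 114 and 110 counts in the siCtrl libraries and 139, 111 and 134 in the siYAP/TAZ libraries (log2 fold change 0.34, adjusted p = 0.451 in edgeR's test). APH1A, a γ-secretase subunit and the most abundant of the list, was at 412 and 424 CPM (adjusted p = 0.908). Its paralog APH1B had 10, 14 and 21 counts in the siCtrl libraries and 44, 31 and 45 in the siYAP/TAZ libraries. These groups did not overlap, and the log2 fold change was 1.36 with a standard error of 0.30 (edgeR adjusted p = 0.0559). APH1B passed the threshold with DESeq2 (adjusted p = 0.0350) and with the replicate block (edgeR adjusted p = 0.0146). NCSTN, the γ-secretase subunit nicastrin, was at 0.60 (edgeR adjusted p = 0.100) and passed it with the block (edgeR adjusted p = 0.0435). In the palmitoyltransferase list 7 of 8 genes were tested and 0 called by edgeR or DESeq2 (1 higher at an unadjusted p under 0.05), with a median of 0.093, and SPTSSA, its small activating subunit, was at 163 and 174 CPM (adjusted p = 0.889 in edgeR's test).

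**Figure D4:**
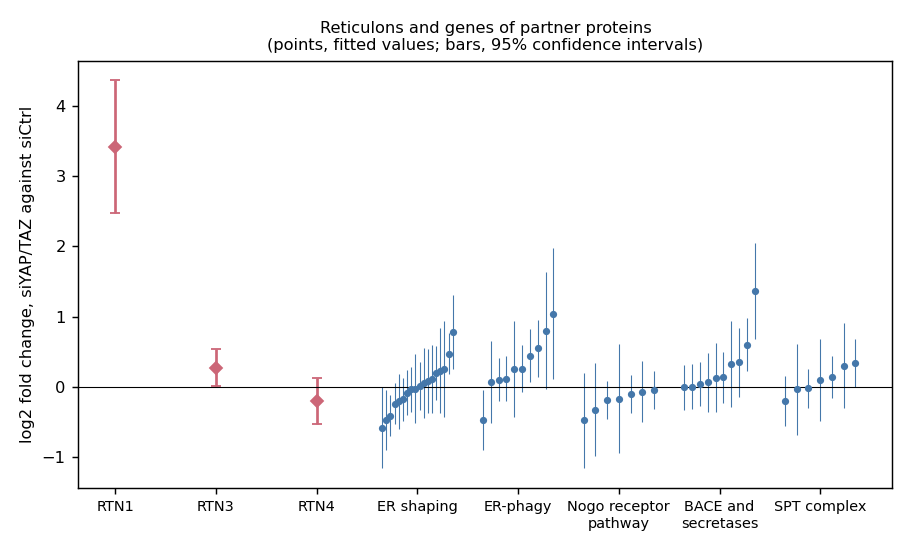
Fitted log2 fold change of siYAP/TAZ against siCtrl (vertical axis) with 95% confidence intervals for RTN1, RTN3 and RTN4 (red) and for the tested genes of the 5 partner lists (blue, sorted within each list, genes on 2 lists drawn in both). RTN1 lies at 3.42, above the highest partner gene APH1B at 1.36, and RTN1 was chosen for this difference.

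Since RTN1 is known from neuroendocrine cells, markers of those cells were read beside it. Of 18 neuroendocrine markers 4, with CHGA, INSM1 and NEUROD1 among them, were at 0 in every library, and 7, these included, never exceeded 3 counts. Their summed level was 48.5 to 73.1 CPM in the siCtrl libraries and 38.3 to 46.2 CPM in the siYAP/TAZ libraries, and most of it came from SCG5 and TUBB3. The most abundant, SCG5, a chaperone of prohormone convertase, was at 26.1 and 16.1 CPM (log2 fold change -0.69, adjusted p = 0.0980 in edgeR's test). Of the 3 tested markers 0 were called by edgeR or DESeq2 (2 lower at an unadjusted p under 0.05). With the replicate block 1 was, TUBB3, which was lower, against 10.1% of all genes in that fit. PCSK1, a prohormone convertase, went the other way, from 4, 16 and 20 siCtrl counts to 26, 20 and 26 siYAP/TAZ counts. Its groups did not overlap in CPM, at a log2 fold change of 0.80 (adjusted p = 0.389 in edgeR's test).

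All 12 epithelial markers were detected and tested, as the label of the cells would have them. Their sum was 3443 to 4060 CPM in the siCtrl libraries and 2479 to 2846 CPM in the siYAP/TAZ libraries, and KRT6A, a keratin of activated epithelium, was at 1185 and 714 CPM (adjusted p = 0.0715 in edgeR's test). None of the 12 was called by edgeR (p under 0.05 before adjustment for 1 higher and 2 lower). DESeq2 called 2 lower, against 4.54% of all its genes in either direction. With the replicate block edgeR called 1 higher and 4 lower, against 10.1% of all genes in that fit. Of 7 fibroblast markers COL1A2 and COL3A1 were at 0 in every library. DCN, which encodes the matrix proteoglycan decorin, had 19, 24 and 22 counts in the siCtrl libraries and 314, 103 and 210 in the siYAP/TAZ libraries and rose by 3.15 on the log2 scale (edgeR adjusted p = 0.00315). PDGFRA, the most abundant, was at 161 and 167 CPM (edgeR adjusted p = 0.871), and the sum of the list was 163 to 181 CPM against 218 to 229 CPM. The 7 immune markers summed to 6.28 to 12.3 CPM against 4.35 to 11.9 CPM, with LYZ and CD1A at 0 and CD14 the most abundant (edgeR adjusted p = 0.621). The 3 endothelial markers summed to 2.01 to 3.39 CPM against 4.76 to 11.2 CPM, with PECAM1 at 1.32 and 5.88 CPM (edgeR adjusted p = 0.0785), which was called higher by DESeq2 and with the replicate block. The epithelial sum was lower and the fibroblast and endothelial sums were higher in every siYAP/TAZ library. Of the 12 epithelial estimates 8 lay below 0 and 4 above. Most of the fibroblast difference came from DCN, at means of 6.13 CPM in siCtrl and 54.1 CPM in siYAP/TAZ. Most of the endothelial difference came from PECAM1. The part of these sums in the RTN1 difference was not tested.

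Among the genes with the profile most like that of RTN1 over the 6 libraries, by Pearson's r of log2 CPM, were HIP1 (r = 0.983), TPRG1L (r = 0.982), AVIL (r = 0.982) and ECI1 (r = 0.982). They encode an endocytic adaptor, a synaptic vesicle protein, an actin-binding protein and a mitochondrial isomerase of fatty acid breakdown. In all 4 of these siYAP/TAZ replicate 2 was the lowest of the siYAP/TAZ libraries, as in RTN1, but the size of their change was far smaller. The log2 fold changes were 0.71 for HIP1, 1.01 for TPRG1L, 0.79 for AVIL and 0.36 for ECI1.

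For RTN4 the most alike were ZNHIT3 (r = 0.996), PLOD2 (r = 0.991), API5 (r = 0.989), S100A11 (r = 0.989) and RCC1L (r = 0.989). In these, as in RTN4, siCtrl replicate 1 was the highest library and siYAP/TAZ replicate 2 the lowest, and siCtrl and siYAP/TAZ overlapped. PLOD2, a collagen lysyl hydroxylase, spanned 191.6 to 82.6 CPM, while S100A11, a calcium-binding protein, spanned 529 to 415 CPM. There were 12510 genes to choose from and 6 libraries, and all genes share the depth and scaling of each library. Such values of r therefore describe these libraries and no more.

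**Figure D5:**
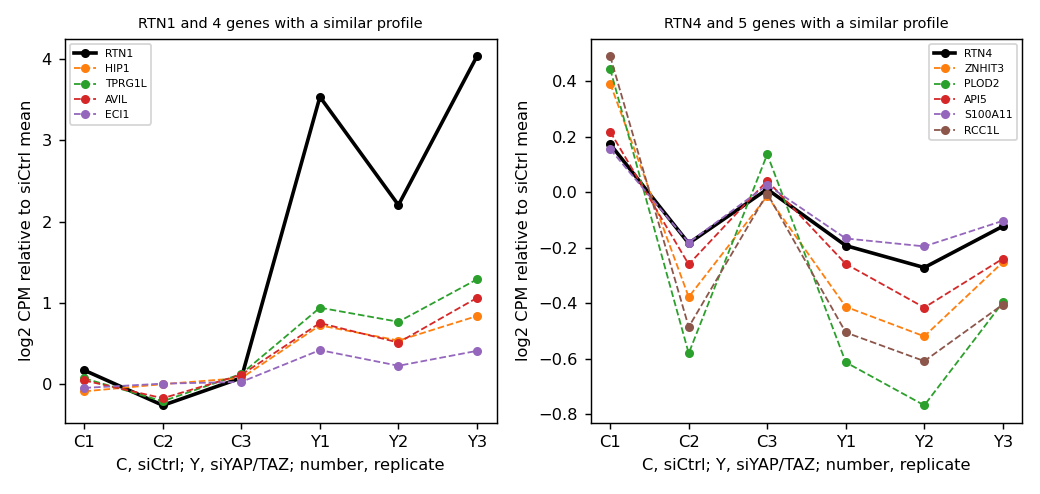
log2 CPM relative to the siCtrl mean (vertical axis) in each library (C, siCtrl; Y, siYAP/TAZ) for RTN1 and 4 of the genes most like it (left) and for RTN4 and the 5 most like it (right). Lines join the points of one gene only to guide the eye. RTN1 has a log2 fold change of 3.42 and the 4 genes beside it 0.36 to 1.01, and the vertical scales of the panels differ.

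YAP and TAZ act on DNA mainly through TEAD factors, often at sites shared with AP-1, so the promoter windows of the members (250 bases before to 50 after the start, RefSeq, GRCh38.p14) were searched on both strands for the TEAD core GGAATG and the AP-1 motif TGANTCA. The TEAD core was in 14.0% of 35116 promoters and the AP-1 motif in 7.71%. None of the 3 RTN1 promoters held either motif, which at these shares does not set RTN1 apart. The TEAD core was in 1 of 2 promoters of RTN2 and 3 of 8 of RTN4, and the AP-1 motif in the 1 promoter of RTN3 and 3 of 8 of RTN4, of which some windows overlap. RTN3 had no TEAD core and RTN2 no AP-1 motif. Examples are shown because they place the matches found in the paralogs, written on the strand of the gene with the motif in capitals.
RTN2, TEAD, chr19:45493351-45493380, minus strand: aggaacagctatGGAATGgttaaagacatc
RTN3, AP-1, chr11:63681470-63681499, plus strand: gccctctagctgcgctcggcTGAGTCAgtc
RTN4, TEAD, chr2:55137850-55137879, minus strand: gggtcagtagggGGAATGgggagagccgct
RTN4, AP-1, chr2:55051362-55051391, minus strand: catccgaaatgtTGACTCAtgaacctaagg
A match is a string of letters and not a bound site, and its absence from these windows says nothing about binding elsewhere in RTN1.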

How the data were processed

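QuantSeq FWD 3′ mRNA-Seq libraries of MCF10A cells were analysed, 3 siCtrl and 3 siYAP/TAZ. The authors deposited raw counts per Entrez gene, not normalised. The submitters' processing notes name cutadapt 4.2, Bowtie2 2.3.5.1 and hg19, and the study's RNA-Seq methods name countOverlaps in R. The annotation and the use of strand are not given in the sources used here. Symbols were matched through RefSeq for 23308 of 23459 genes, and members were located in GENCODE lifted to GRCh37.

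Counts were tested with edgeR 4.0.16 (R 4.3.3), using filterByExpr with its defaults, TMM factors, a design with group alone, the quasi-likelihood F test and Benjamini-Hochberg correction over 12510 genes at a threshold of 0.05. CPM are TMM-normalised, log2 CPM for profiles used a prior count of 2, and errors are standard deviations. The script was tested on simulated data. No 2 libraries were repeats of each other (chi-square per degree of freedom 5.37 to 17.4 within groups). Deviations from the group means correlated between libraries of the same replicate number across genes (r = 0.42, 0.35 and 0.13). The numbers, taken from the descriptions, were therefore used to pair the libraries in an alternative fit, the replicate block. The main test ignored this pairing.

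Alternatives were DESeq2 1.42.0, no filter, a minimum mean of 50 counts, RLE size factors, scaling by library size, robust dispersion, the replicate block, the titles' groups, both libraries with conflicting labels left out, and each library left out. Genes named were the 4 members, YAP1 and WWTR1, partner genes past the threshold, the most abundant gene of each list, RTN4R, NUS1, BACE1, RETREG1 and the 5 most similar profiles for RTN1 and for RTN4. DCN, PCSK1, TUBB3, RTN4RL1, LINGO1, S1PR2, partner genes called only under an alternative, and genes at 0 or at the floor were named after their values were seen. Of the named genes and markers, 2 are not reported here. The members and lists were chosen with earlier results of these data known.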

Additional observations from a re-analysis of the deposited data

How the results depend on the processing

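RTN3 and RTN4 kept their direction and stayed uncalled under 15 alternatives each (RTN3 0.043 to 0.30, adjusted p 0.165 to 0.962; RTN4 -0.29 to -0.11, adjusted p 0.194 to 0.905, edgeR or DESeq2). The replicate block, which pairs the libraries by number, changed no call of RTN3 or RTN4 and gave RTN1 3.35, the 245 genes called became 1263 and the 0 partner genes became 6. DESeq2 called 587 genes and 1 partner gene, no low-count filter 556 and 1, and leaving out both libraries with conflicting labels 1183 and 5. Leaving out single libraries gave 16 (without siCtrl replicate 3) to 1579 genes (without siCtrl replicate 2), with 18 when siYAP/TAZ replicate 3 was left out, 71 for siYAP/TAZ replicate 2 and 92 for siCtrl replicate 1, and 0 to 4 partner genes. RTN1 ran from 3.01 to 3.79 and the RTN2 ratio from 1.44 to 4.84, the latter without siCtrl replicate 3. With the titles' groups 0 genes were called by edgeR (464 at an unadjusted p under 0.05), RTN1 was 2.11, the RTN2 ratio 0.661 and the RTN1 share differed by 8.17 points. The cause was not tested. YAP1 and WWTR1 lost their calls with the titles' groups (-0.26 and -0.22).

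Some estimates turned sign. With the titles' groups PECAM1 went from 2.10 to -0.32, CD14 from -0.41 to 0.022, PDGFRA from 0.050 to -0.022 and SPTSSA from 0.093 to -0.0067. With single libraries left out APH1A ran from -0.051 to 0.11, KTN1 from -0.12 to 0.036, NUS1 from -0.20 to 0.12, PDGFRA from -0.017 to 0.10 and SPTSSA from -0.21 to 0.38. RTN2 is limited by depth.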

Other observations

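The ratio of RTN4 to RTN3 counts, picked after the values were seen, was 8.86, 7.37 and 7.84 in the siCtrl libraries and 6.03, 5.44 and 5.91 in the siYAP/TAZ libraries. It does not involve RTN1 or the scaling between libraries. The groups did not overlap, with means of 8.02 ± 0.764 and 5.79 ± 0.312 (SD, n = 3). A two-sided exact permutation test that ignored the pairing of the libraries gave p = 0.1, the smallest that 3 against 3 allow, so it could not have passed the threshold and supports nothing. Neither gene was called on its own.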
